A study of Mus musculus with 24 samples.

Results

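Runx2, Sp7, Dlx3, Dlx5, Dlx6, Msx1, Msx2 and Twist1 are 8 transcription factor genes that guide mesenchymal cells of the skull into, or hold them back from, the osteoblast lineage, the cells that make bone matrix. They were found by gene symbol among the 54232 gene rows of the deposited count table, and each matched 1 row. Their RNA was measured by bulk RNA sequencing of polyadenylated RNA from calvarial (skull vault) osteoblast cultures prepared from newborn mice and pooled. Cultures of wild-type (WT) mice and of a high bone mass (HBM) line were sampled on days 0, 10, 15 and 21 of osteoblast differentiation, with 3 independent pooled cultures in each of the 8 groups of genotype and day, 24 libraries in all. The labels give neither the strain nor the mutation of the HBM line, and no treatment other than differentiation. From general knowledge, and not from the labels, HBM mice carry a change in Col1a1, the collagen I alpha 1 chain gene, where the C-terminal propeptide of procollagen is removed. Each culture carries a batch number in the labels, 18, 19 or 21. Each number occurs once per genotype and day, and was read as 1 culture sampled on 4 days, which the labels do not state.

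Runx2 is the factor without which no osteoblasts form, and Sp7 (osterix) is a zinc finger factor that acts after it. The distal-less genes Dlx3, Dlx5 and Dlx6 and the muscle segment genes Msx1 and Msx2 encode homeodomain proteins that bind similar DNA motifs. Dlx proteins mostly activate, and Msx proteins mostly repress, bone genes such as the osteocalcin gene Bglap. Twist1, a basic helix-loop-helix factor of the cranial sutures, binds Runx2 protein and restrains it. Mutations of RUNX2, MSX2, TWIST1 and DLX3 underlie human skull and bone disorders.

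All 8 genes were among the 16592 that passed the filter on low counts. Column totals were 28039095 to 46987734 counts. All 7 listed osteoblast markers (Alpl, Ibsp, Bglap, Col1a1, Spp1, Ifitm5 and Col22a1) had counts in each library. Their summed levels were 20500 to 118000 CPM (counts scaled to a common library size). On day 0 some of them were near the floor. The filter minimum of 0.268 CPM was reached in 0 of 6 day 0 libraries for Bglap and 2 for Ifitm5. For Ibsp and Col22a1 it was reached in 4 each. Other cells were present too. The summed level of 7 macrophage markers was 7220 to 10500 CPM in batch 21 on the later days, against 1470 to 5740 CPM in the other batches. On day 0 it was 953 and 1170 CPM in batch 21 and 40 to 112 CPM in the others. The 9 chondrocyte markers summed to 17400 CPM (WT) and 10100 CPM (HBM) in batch 19 on day 0, and to 1690 to 5710 CPM in all other libraries. Endothelial markers summed to at most 7.77 CPM, and adipocyte markers to between 20 and 49.8 CPM on day 0 and 234 to 772 CPM later. The female transcript Xist was at 0 to 0.0328 CPM in both genotypes of batch 21. The batch 19 libraries held 18 to 41.7 CPM of it in WT against 177.1 to 246.1 CPM in HBM, so the sex make-up of these pools differed with genotype. In batch 18 the ranges of Xist overlapped, but the Y-linked Ddx3y was lower in HBM (12.1 to 18.2 CPM) than in WT (21.5 to 32.6 CPM). In WT cultures of batch 19, Ddx3y was at 55.6 to 62.8 CPM on the later days and Xist at 25.2 to 41.7 CPM. Both were lower in the WT day 0 library of that number, at 22.2 and 18 CPM, which does not show a changed sex make-up. No call of a member from day 0 to day 10 in WT was lost without that library. In HBM cultures of batch 19, Ddx3y was at 48.1 CPM on day 0 and at 33.5 to 38.2 CPM later. It was thus above WT on day 0 and below WT on the later days, whereas Xist was above WT on each day. The part of these markers in the changes of the members over days was not tested. Bulk counts cannot separate fewer cells of a type from less RNA per cell.

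Runx2 lies on chromosome 17 (44495987 to 44814797, minus strand, mm10 coordinates of the GENCODE M21 annotation, ENSMUSG00000039153). Sp7 is on chromosome 15 (102356606 to 102367182, minus strand, ENSMUSG00000060284). Dlx3 is on chromosome 11 (95120119 to 95125296, plus strand, ENSMUSG00000001510), 167 kb from Col1a1. Dlx5 (6877805 to 6882085, minus strand, ENSMUSG00000029755) and Dlx6 (6863334 to 6868568, plus strand, ENSMUSG00000029754) form a pair on chromosome 6 with a gap of 9.24 kb. Msx1 is on chromosome 5 (37820485 to 37824583, minus strand, ENSMUSG00000048450). Msx2 is on chromosome 13 (53466884 to 53473074, minus strand, ENSMUSG00000021469). Twist1 is on chromosome 12 (33957671 to 33959829, plus strand, ENSMUSG00000035799).

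The homeobox is the coding stretch for the DNA-binding homeodomain. It is shown for 4 members to set their likeness in sequence beside RNA levels that went different ways. Each sequence has 180 coding bases read from mm10 along the gene's own strand, and the capitals mark the 18 bases that encode the core of the DNA-contacting helix.
Dlx3: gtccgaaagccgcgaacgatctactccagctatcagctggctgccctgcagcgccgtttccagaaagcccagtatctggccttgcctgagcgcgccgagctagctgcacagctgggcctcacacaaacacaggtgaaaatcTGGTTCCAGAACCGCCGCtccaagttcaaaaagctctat
Dlx5: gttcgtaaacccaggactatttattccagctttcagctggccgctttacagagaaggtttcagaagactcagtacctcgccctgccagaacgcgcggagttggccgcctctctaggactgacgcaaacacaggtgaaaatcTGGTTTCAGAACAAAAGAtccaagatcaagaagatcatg
Dlx6: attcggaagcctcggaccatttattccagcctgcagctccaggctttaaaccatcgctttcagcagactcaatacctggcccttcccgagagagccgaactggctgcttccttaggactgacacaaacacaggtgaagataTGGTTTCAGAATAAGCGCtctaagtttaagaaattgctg
Msx2: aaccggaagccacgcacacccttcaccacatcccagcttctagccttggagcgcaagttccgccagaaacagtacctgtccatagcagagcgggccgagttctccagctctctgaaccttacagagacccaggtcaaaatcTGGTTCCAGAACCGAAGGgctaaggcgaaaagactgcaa
The Dlx homeoboxes are split over 2 exons, and that of Msx2 lies in 1 exon. Dlx3 spans chromosome 11, 95121767 to 95123456, and Dlx5 chromosome 6, 6878441 to 6879657. Dlx6 spans chromosome 6, 6865140 to 6867088. The Msx2 stretch is chromosome 13, 53468370 to 53468549. Dlx3 and Dlx5 shared 129 of 180 bases (71.7%) and 53 of 60 encoded residues, and Dlx5 and Dlx6 shared 132 bases (73.3%) and 51 residues. Between the families the match was lower: Dlx3 and Msx2 shared 113 bases (62.8%) and 35 residues.

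Levels between genes were compared as CPM per kilobase of exon, given as mean ± SD of 3 libraries. On day 0 Msx2 stood highest in WT cultures at 88.5 ± 22.3, above Twist1 at 37.4 ± 7.69 and Msx1 at 19.2 ± 6.87. Sp7 (10.4 ± 4.81), Runx2 (7.41 ± 1.90), Dlx5 (5.73 ± 0.581) and Dlx6 (2.41 ± 0.566) followed, and Dlx3 was last at 0.0846 ± 0.0301. The libraries of neighbours in this order did not overlap, except Msx1 with Sp7 and Sp7 with Runx2. HBM cultures had the same order on day 0, from Msx2 at 65.9 ± 13.3 to Dlx3 at 0.0846 ± 0.0903, and there Runx2 overlapped Dlx5 as well. By day 21 Sp7 had the highest mean, at 35.1 ± 17.7 in WT and 54.3 ± 13.8 in HBM, followed by Twist1 at 21.8 ± 5.11 and 21.8 ± 2.32. In WT on that day all neighbours overlapped except Dlx3 (8.10 ± 5.22) with Dlx6 (2.60 ± 0.936). In HBM Sp7, Twist1 and Dlx3 (14 ± 6.24) were apart from each other, and Runx2, Msx2, Msx1 and Dlx5, at 10.1 to 11.6, each overlapped the next.

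**Figure D1:**
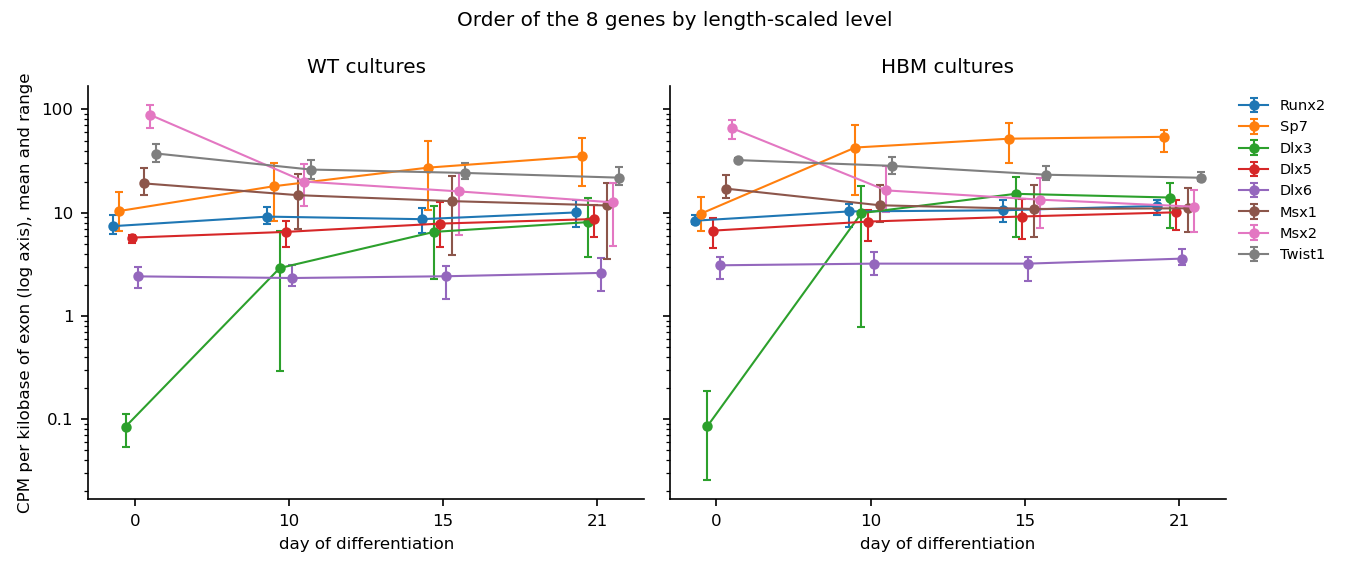
Level per kilobase of exon (CPM per kb, log axis) of the 8 genes on days 0, 10, 15 and 21 in WT (left) and HBM cultures (right); points are means of 3 libraries and bars run from the lowest to the highest library. Msx2 led on day 0 (88.5 in WT, 65.9 in HBM) and Sp7 on day 21 (35.1 and 54.3), while Dlx3 started lowest at 0.0846 in both.

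Differentiation from day 0 to day 10 was the step at which members passed the test. In WT cultures 2 of 8 changed, Dlx3 upward and Msx2 downward, and in HBM cultures 3 of 8 changed, Dlx3 and Sp7 upward and Msx2 downward. The test was edgeR's quasi-likelihood test with Benjamini-Hochberg adjustment over all genes, which called 26.1% of genes in WT (12.1% higher and 14% lower) and 26.5% in HBM (14.1% higher and 12.4% lower). The members' shares, 2 of 8 and 3 of 8, were near this background. With batch 21 left out, 4 of 8 were called in WT (27.2% of genes) and 3 of 8 in HBM (22.5%), an alternative chosen after the data were seen. The median log2 change of the 8 was 0.06 in WT and 0.17 in HBM, against -0.02 and 0.00 over all genes. Values below are CPM of individual libraries, always in the order batch 18, 19, 21.

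Runx2 was well expressed from the start. In WT cultures it was at 56.4, 55.2 and 84.8 CPM on day 0 and at 74.2, 100.1 and 68.6 CPM on day 10. In HBM cultures it was at 68.6, 69.7 and 83.2 CPM on day 0 and at 99.6, 107.9 and 64.8 CPM on day 10. Batches 18 and 19 were higher on day 10 than on day 0 in both genotypes, and batch 21 was lower in both, so the groups overlapped. The log2 change was 0.31 ± 0.26 (SE) in WT (adjusted p = 0.408) and 0.30 ± 0.26 in HBM (adjusted p = 0.427). With batch 21 left out Runx2 passed in WT (log2 0.63 ± 0.20, adjusted p = 0.0405) and not in HBM (0.58, adjusted p = 0.062). On day 15 it was at 75.0, 98.2 and 56.1 CPM in WT and at 89.1, 118.2 and 71.8 CPM in HBM. On day 21 it was at 85.2, 116.4 and 64.5 CPM in WT and at 105.0, 118.1 and 84.4 CPM in HBM. All 24 libraries thus lay between 55.2 and 118.2 CPM.

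Sp7 passed in HBM and not in WT. In WT cultures it was at 22.7, 29.4 and 53.8 CPM on day 0 and at 52.3, 103.3 and 28.1 CPM on day 10. In HBM cultures it was at 22.5, 28.7 and 48.5 CPM on day 0 and at 145.8, 240.2 and 49.8 CPM on day 10. The HBM groups did not overlap, although batch 21 went only from 48.5 to 49.8 CPM, and the WT groups overlapped because batch 21 had the highest value on day 0 and the lowest on day 10. Non-overlap between days 0 and 10 was found for 38.5% of genes in HBM and 33.6% in WT. The log2 change was 2.13 ± 0.64 in HBM (4.37-fold, adjusted p = 0.0198) and 0.79 ± 0.61 in WT (1.73-fold, adjusted p = 0.359). The HBM call was lost without the day 0 library of batch 18 (adjusted p = 0.0792) or 19 (0.0676), without the day 10 library of batch 19 (0.0972), and with the 6 libraries fitted alone (0.0609). With the culture as a block it was lost without batch 18 (0.177) or 19 (0.206). Without batch 21 Sp7 passed in both genotypes, at 1.57 ± 0.44 in WT (adjusted p = 0.0241) and 2.91 in HBM (adjusted p = 0.00223).

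Dlx3 went from the edge of detection to a moderate level. On day 0 it was at 0.295, 0.227 and 0.139 CPM in WT (13, 8 and 5 counts) and at 0.491, 0.104 and 0.0664 CPM in HBM (18, 4 and 2 counts). On day 10 it was at 4.66, 17.3 and 0.763 CPM in WT and at 28.3, 47.2 and 2.04 CPM in HBM. Each culture was higher on day 10, and the groups did not overlap in either genotype. The log2 change was 5.06 ± 1.24 in WT (33.5-fold, adjusted p = 0.0062) and 6.82 ± 1.30 in HBM (113-fold, adjusted p = 0.00117). Within cultures the ratio ran from 5.49 (WT, batch 21) to 76.2 (WT, batch 19), and from 30.7 (HBM, batch 21) to 454 (HBM, batch 19). The ratio of 30.7 rests on 2 counts and has an exact 95% counting interval of 8.25 to 258, which does not cover error between cultures. Dlx3 passed the filter on low counts only through libraries of later days, so a difference from day 0 was built into its being tested. On day 15 it was at 14.5, 30.6 and 5.98 CPM in WT and at 46.6, 57.4 and 15.0 CPM in HBM. On day 21 the values were 17.3, 36.2 and 9.79 CPM in WT and 50.5, 40.5 and 18.7 CPM in HBM. Only the HBM culture of batch 19 was lower on day 21 than on day 10. With the 6 WT libraries fitted alone its adjusted p was 0.0693. Leaving out 1 library at a time moved the log2 change between 3.58 and 5.6 in WT and between 6.06 and 8.16 in HBM, and it passed each time. With the culture as a block it was 4.6 ± 0.77 in WT and 6.56 ± 0.78 in HBM, and 3.44 and 5.4 without batch 19.

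Dlx5 and Dlx6 did not pass in any step. On days 0 and 10 Dlx5 was at 13.7, 11.5 and 13.7 CPM and at 14.8, 18.9 and 10.5 CPM in WT, and at 14.9, 10.4 and 20.2 CPM and at 19.7, 23.7 and 12.2 CPM in HBM. Its log2 change was 0.18 ± 0.40 in WT (adjusted p = 0.762) and 0.29 ± 0.40 in HBM (adjusted p = 0.625). Over days 15 and 21 Dlx5 ranged from 10.4 to 28.5 CPM in WT and from 12.5 to 30.7 CPM in HBM. The genotypes overlapped on each day. Dlx6 was at 5.63, 4.43 and 7.12 CPM in WT on day 0 and at 7.31, 4.6 and 4.66 CPM on day 10. In HBM it was at 7.78, 5.4 and 8.83 CPM on day 0 and at 9.93, 6.97 and 5.97 CPM on day 10. Its log2 change was -0.05 ± 0.33 in WT and 0.06 ± 0.33 in HBM, the smallest of the 8 in both genotypes. On day 21 Dlx6 was at 8.57, 5.82 and 4.17 CPM in WT and at 10.5, 7.65 and 7.36 CPM in HBM.

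Msx2 was the member that fell. In WT cultures it was at 217.8, 364.0 and 289.1 CPM on day 0 and at 61.4, 38.1 and 97.4 CPM on day 10. In HBM cultures it was at 170.5, 221.3 and 257.0 CPM on day 0 and at 33.2, 36.0 and 92.4 CPM on day 10. All 6 cultures were lower on day 10, the groups did not overlap, and batch 21 had the highest level of Msx2 on day 10 in both genotypes. The log2 change was -2.15 ± 0.59 in WT (adjusted p = 0.0122) and -2.01 ± 0.58 in HBM (adjusted p = 0.0174). The WT call was lost without the day 10 library of batch 19 (adjusted p = 0.0608). The HBM call was lost without the day 10 library of batch 18 (0.0774) or 19 (0.0753). In the fit blocked by culture the change of Msx2 was -2.39 ± 0.42 in WT (adjusted p = 0.00049) and -2.18 ± 0.41 in HBM (0.000805). It passed there without each batch in turn, at adjusted p-values of 0.00105 to 0.00507 in WT and 0.00392 to 0.0175 in HBM. On day 21 Msx2 was at 44.8, 15.5 and 63.3 CPM in WT and at 37.4, 21.2 and 53.6 CPM in HBM, and on day 15 it was between 20.1 and 78.9 CPM over both genotypes.

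Msx1, its close relative, had a smaller difference in the same direction that did not pass. In WT it was at 46.3, 48.2 and 84.0 CPM on day 0 and at 41.8, 21.4 and 74.0 CPM on day 10. In HBM it was at 43.7, 43.4 and 72.0 CPM on day 0 and at 27.6, 25.0 and 57.1 CPM on day 10. All 6 cultures were lower on day 10, but the spread between batches was larger than this and the groups overlapped. Its log2 change was -0.38 ± 0.65 in WT (adjusted p = 0.695) and -0.54 ± 0.65 in HBM (adjusted p = 0.572). On day 21 Msx1 was at 38.2, 10.9 and 60.2 CPM in WT and at 29.0, 20.1 and 53.4 CPM in HBM.

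Twist1 had a narrow range of 30.4 to 74.6 CPM. In WT it was at 58.1, 74.6 and 50 CPM on day 0 and at 53.3, 40.3 and 34.1 CPM on day 10. In HBM it was at 54.9, 50.1 and 52.8 CPM on day 0 and at 56.3, 44.0 and 38.4 CPM on day 10. All 3 WT cultures and 2 of 3 HBM cultures were lower on day 10, and the groups overlapped. The log2 change was -0.52 ± 0.21 in WT (adjusted p = 0.0744) and -0.19 ± 0.21 in HBM (adjusted p = 0.542). With the culture as a block Twist1 passed in WT (-0.54 ± 0.14, adjusted p = 0.00728) and not in HBM (-0.20, adjusted p = 0.274), in fits that called 38.4% (19.6% higher, 18.8% lower) and 38.2% (20.5% higher, 17.7% lower) of genes. It also passed in WT without the day 0 library of batch 21 (adjusted p = 0.0372) or the day 10 library of batch 18 (0.0375). On day 21 Twist1 was at 45.2, 30.4 and 31.1 CPM in WT and at 39.9, 33.4 and 33.3 CPM in HBM.

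**Figure D2:**
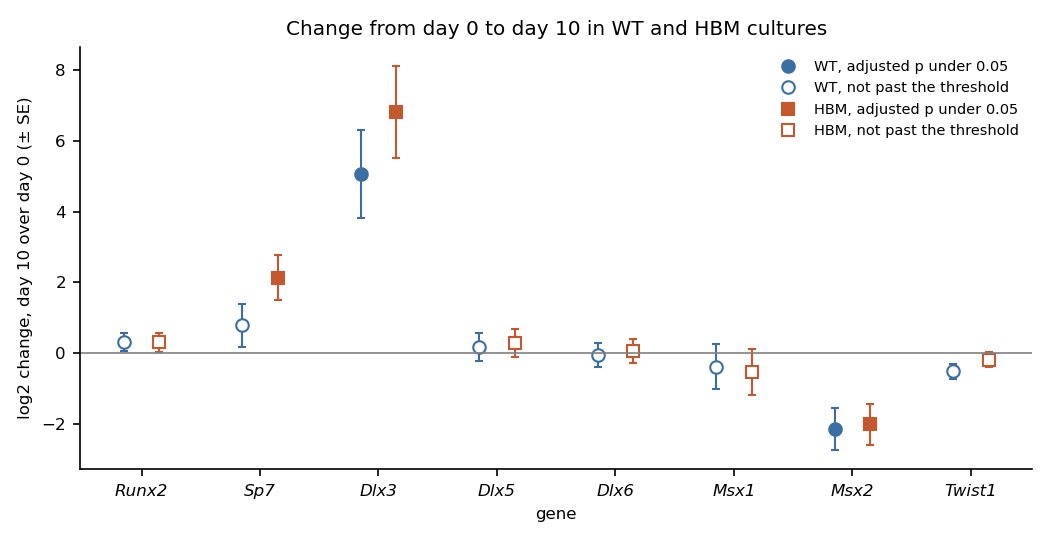
Log2 change from day 0 to day 10 (± SE, 3 libraries per group and day) for each gene in WT (blue circles) and HBM cultures (orange squares); filled symbols have an adjusted p under 0.05 in edgeR's test. Dlx3 rose by 5.06 and 6.82, Msx2 was at -2.15 and -2.01, and Sp7 was filled in HBM only, at 2.13 against 0.79 in WT.

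Whether the 2 genotypes differed in their course over days was tested directly in edgeR for each member, as the change of the HBM to WT difference over the 4 days. No member passed and neither did any other gene (0% called, 99 genes at an unadjusted p under 0.05, and 0 by DESeq2). The smallest unadjusted p among the members was 0.477, for Sp7, without a block. With the culture as a block that of Sp7 was 0.348. With a batch term per day the same edgeR test gave Sp7 an unadjusted p of 0.00198 (adjusted p = 0.647). Dlx3 was at 0.0679 (adjusted p = 0.755) there, and 0% of genes were called, with 1059 at an unadjusted p under 0.05. With a batch left out of that fit the unadjusted p of Sp7 ran from 0.000671 to 0.0371, and no gene was called. The difference between the genotypes in the step from day 0 to day 10 alone was tested as well, a comparison added after seeing the data. Without a block the HBM minus WT difference in log2 change was 1.33 ± 0.87 for Sp7 and 1.75 ± 1.75 for Dlx3 (adjusted p = 1 for both). With a batch term per day it was 1.25 ± 0.27 for Sp7 (unadjusted p = 0.000528, adjusted p = 0.231) and 1.89 ± 0.82 for Dlx3 (adjusted p = 0.326), and the Sp7 change in HBM was above that in WT in all 3 batches. No gene was called in either fit (0%, with 533 and 2489 genes at an unadjusted p under 0.05). The Sp7 value was 1.12, 1.25 and 1.38 without batch 18, 19 and 21. Sp7 passed in HBM and not in WT, and the difference between those steps did not pass over all genes.

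From day 10 to day 21 no member passed in either genotype, and 0% of genes were called. Sp7 had a log2 change of 0.96 ± 0.61 in WT (adjusted p = 0.999) and 0.35 ± 0.61 in HBM (adjusted p = 1). All 3 WT cultures were higher in Sp7 on day 21 than on day 10, by 0.81 to 1.14 on the log2 scale, as were 2 of 3 HBM cultures. Dlx3 had a change of 1.48 ± 0.96 in WT and 0.50 ± 0.94 in HBM. Msx2 was lower on day 21 in all 3 WT cultures and in 2 of 3 HBM cultures, with changes of -0.67 ± 0.57 and -0.52 ± 0.57. Twist1 was lower on day 21 in all 6 cultures, with changes of -0.26 ± 0.21 and -0.38 ± 0.21. With the culture as a block 0.542% (WT) and 0.0964% (HBM) of genes were called, and no member was among them. Unadjusted p-values under 0.05 were found for 705 genes in WT and 534 in HBM without a block.

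**Figure D3:**
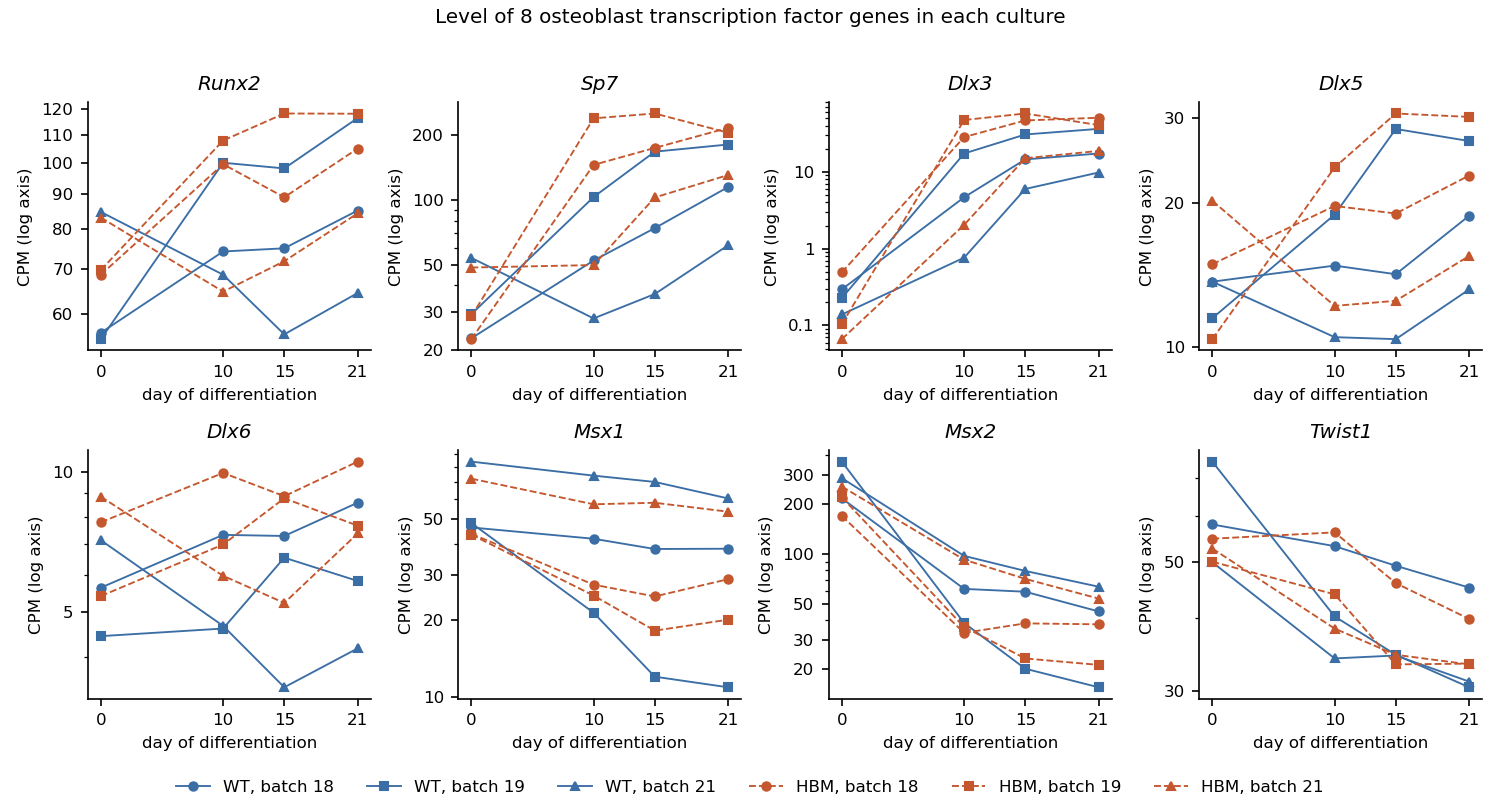
Level of each gene (CPM, log axis) on days 0, 10, 15 and 21 in every culture, with WT as solid blue and HBM as dashed orange lines and the batch given by the marker. From day 0 to day 10, Dlx3 climbs in all 6 cultures from values of at most 0.491 CPM, Msx2 drops in all 6 from values of at least 170.5 CPM, and batch 21 (triangles) runs lowest for Sp7 and Runx2 and highest for Msx1 and Msx2 after day 0.

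The genotypes were compared day by day to ask how the genotype relates to these factors at a given stage. Without a block, no member and no gene passed on any of the 4 days (0% called, with 699, 478, 346 and 352 genes at an unadjusted p under 0.05 on days 0, 10, 15 and 21, and 1, 2, 0 and 1 called by DESeq2). All members overlapped between the genotypes on every day, whereas 3.12%, 11.7%, 8.78% and 9.38% of genes did not overlap on days 0, 10, 15 and 21. The means were apart most for Sp7 and Dlx3 on day 10. Mean ± SD of Sp7 was 61.2 ± 38.4 CPM in WT and 145 ± 95.2 CPM in HBM, and that of Dlx3 was 7.58 ± 8.65 and 25.8 ± 22.7 CPM (n = 3 each). The spread between batches within a genotype was of the size of this difference. The unblocked log2 differences were 1.25 ± 0.62 for Sp7 and 1.77 ± 0.97 for Dlx3, each with an adjusted p of 1.

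Comparison within batches removes that spread, and the batch number pairs the cultures. With a batch term for each day, Sp7 and Dlx3 were higher in HBM on day 10, at 1.18 ± 0.19 (2.26-fold) and 1.88 ± 0.30 (3.69-fold), each with an adjusted p of 0.0169, in a fit that called 1.29% of genes (0.663% higher in HBM). Sp7 was higher on day 15 too, at 1.11 ± 0.19 (2.15-fold, adjusted p = 0.0348, with 0.307% of genes called and 0.223% called higher), where Dlx3 did not pass at 1.30 ± 0.27 (adjusted p = 0.0611). On day 21 no member passed (0.247% called), with Sp7 at 0.73 ± 0.19 (adjusted p = 0.117), Dlx6 at 0.50 ± 0.12 (0.105) and Dlx3 at 0.87 ± 0.27 (0.173). On day 0 no member passed either (0.121% called), with Sp7 at -0.07 ± 0.19 and Dlx3 at -0.01 ± 0.74. With a single batch term for all days, no gene was called on any day.

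Each of these paired calls was lost without at least 1 batch. On day 10 the adjusted p of Sp7 became 0.187 without batch 18, 0.0463 without batch 19 and 0.0889 without batch 21, and that of Dlx3 became 0.0488, 0.0676 and 0.137. On day 15 Sp7 was at 0.21, 0.0332 and 0.33 in the same order. On day 21 Sp7 passed without batch 19, at an adjusted p of 0.039. The count of genes called on day 10 dropped from 214 to 42, 26 and 5 when batch 18, 19 or 21 was left out. On day 21 it went from 41 to 5, 131 and 2.

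Within single batches Sp7 had nearly the same level in both genotypes on day 0, with log2 differences (HBM minus WT) of -0.02, -0.03 and -0.15. On day 10 they were 1.48, 1.22 and 0.82, on day 15 they were 1.24, 0.59 and 1.49, and on day 21 they were 0.92, 0.18 and 1.09. Sp7 was thus higher in HBM in 9 of 9 pairs after day 0 and in 0 of 3 pairs on day 0. Dlx3 differed by 2.59, 1.45 and 1.39 on day 10, by 1.69, 0.91 and 1.33 on day 15 and by 1.54, 0.16 and 0.93 on day 21. It too was higher in HBM in 9 of 9 later pairs, and the batch 19 pair converged most. In batch 21, where both genotypes lacked Xist, the difference over days 10 to 21 was 0.82 to 1.49 for Sp7 and 0.93 to 1.39 for Dlx3.

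Dlx5 and Dlx6 were also higher in HBM in 9 of 9 later pairs, by less. The difference ran from 0.11 to 0.42 (median 0.26) for Dlx5 and from 0.28 to 0.81 (median 0.42) for Dlx6, which was higher in HBM on day 0 too, in 3 of 3 pairs. HBM was higher in all 9 pairs for 5.76% of genes and lower in all 9 for 6.42%. The 9 pairs come from 3 pairs of cultures. Runx2 was higher in HBM in 8 of 9 later pairs, by a median of 0.27. Msx1 was lower in 6 of 9, Msx2 was lower in 7 of 9, and Twist1 was higher in 5 of 9. In batch 19 Msx1 was higher in HBM on days 10, 15 and 21, by 0.22, 0.60 and 0.88, whereas batches 18 and 21 had it lower on each of these days. On day 10 the summed osteoblast markers, like Sp7 and Dlx3, were higher in HBM in each batch. They were 45500, 52100 and 29700 CPM in WT and 74200, 96300 and 44000 CPM in HBM. Macrophage markers on day 10 were at 2550, 2800 and 7860 CPM in WT and 1470, 4110 and 10500 CPM in HBM, lower in HBM in batch 18 only. The 9 chondrocyte markers had a median log2 difference of -1.04 on day 10 with a batch term per day. Of them 2 passed as lower in HBM, as did 104 of all 16592 genes. Their sum on day 10 was 1840, 5110 and 5710 CPM in WT and 2100, 3760 and 2350 CPM in HBM. It was lower in HBM in batches 19 and 21 and higher in batch 18. Among them Col2a1, a cartilage collagen gene, was at 594.6, 2630 and 3765 CPM in WT on that day. In HBM it was at 383.3, 1253 and 1338 CPM, lower in all 3 batches, so other listed markers went the other way in batch 18. The part of any of these in the member differences was not tested.

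**Figure D4:**
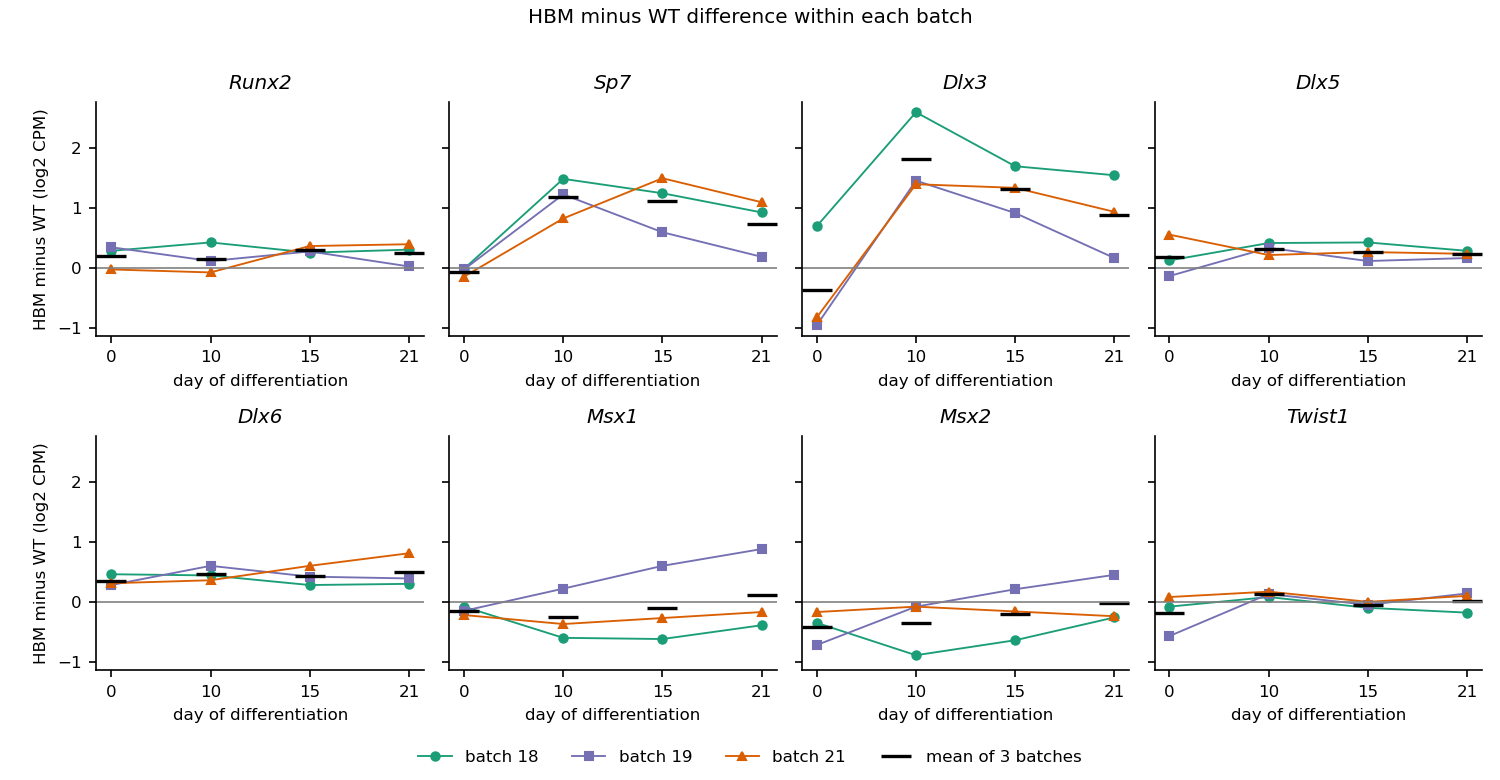
HBM minus WT difference of log2 CPM within batch 18, 19 and 21 on each day, with black bars for the mean of the 3 batches and a line at 0. For Sp7, Dlx3, Dlx5 and Dlx6 all 9 points after day 0 lie above the line, with medians of 1.09, 1.39, 0.26 and 0.42, and Msx1 in batch 19 lies above it on days 10, 15 and 21 and Msx2 on days 15 and 21, where batches 18 and 21 lie below.

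Adding up a culture's counts from all days gave no called gene without a block (0%, 540 genes at an unadjusted p under 0.05, 25 called by DESeq2). With the batch as a block 0.196% of genes were called and no member was among them. Nearest to the threshold were Sp7 at 0.89 ± 0.12 (adjusted p = 0.0703), Msx2 at -0.40 ± 0.07 (0.0759), Dlx6 at 0.44 ± 0.08 (0.0879) and Dlx3 at 1.29 ± 0.22 (0.11).

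The batches kept a similar order through the later days. Over the 6 sets of genotype and day after day 0, batch 21 was lowest in 6 of 6 for Runx2, Sp7, Dlx3 and Dlx5 and in 5 of 6 for Dlx6, and highest in 6 of 6 for Msx1 and Msx2. Batch 19 was highest in 6 of 6 for Runx2 and Dlx5 and in 5 of 6 for Sp7 and Dlx3, and lowest in 6 of 6 for Msx1. Batch 18 was highest in 6 of 6 for Dlx6 and Twist1. On day 0 batch 21 was highest in both genotypes for Runx2, Sp7, Dlx5 and Dlx6, where it was mostly lowest later. For Msx1 (highest) and Dlx3 (lowest) its place on day 0 was the same as later. Batch 21 was also the batch with the highest macrophage sums on every day, whose part in this order was not tested.

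The members fell into 2 sets that varied in opposite directions, with Dlx6 and Twist1 beside them. Over the 24 libraries the Pearson correlation of log2 CPM was 0.88 between Runx2 and Sp7, 0.90 between Runx2 and Dlx5, 0.87 between Sp7 and Dlx3, and 0.79 between Msx1 and Msx2. Dlx3 and Msx2 were opposed, at -0.94. The libraries share cultures and days, so these values are descriptions only. After the mean of each group was subtracted, which leaves differences between batches, Runx2 and Sp7 were at 0.95, Msx1 and Msx2 at 0.94, Runx2 and Dlx5 at 0.89, and Dlx3 and Msx2 at -0.81. The neighbours Dlx5 and Dlx6 were at 0.60 over all libraries and 0.57 within groups, lower than Dlx5 with Runx2 in both. Twist1 stood apart within groups, at -0.03 with Runx2 and 0.00 with Msx2, and its closest member there was Dlx6 at 0.54. With Bglap, the osteocalcin gene of mature osteoblasts, Dlx3 had the highest value of the members over all libraries at 0.98, Sp7 was at 0.88 and Msx2 at -0.93. Dlx3 and Bglap were both near the floor on day 0, which enters that value. Within groups Sp7 was highest with Bglap at 0.89, followed by Dlx3 at 0.86, and Msx2 was at -0.72.

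**Figure D5:**
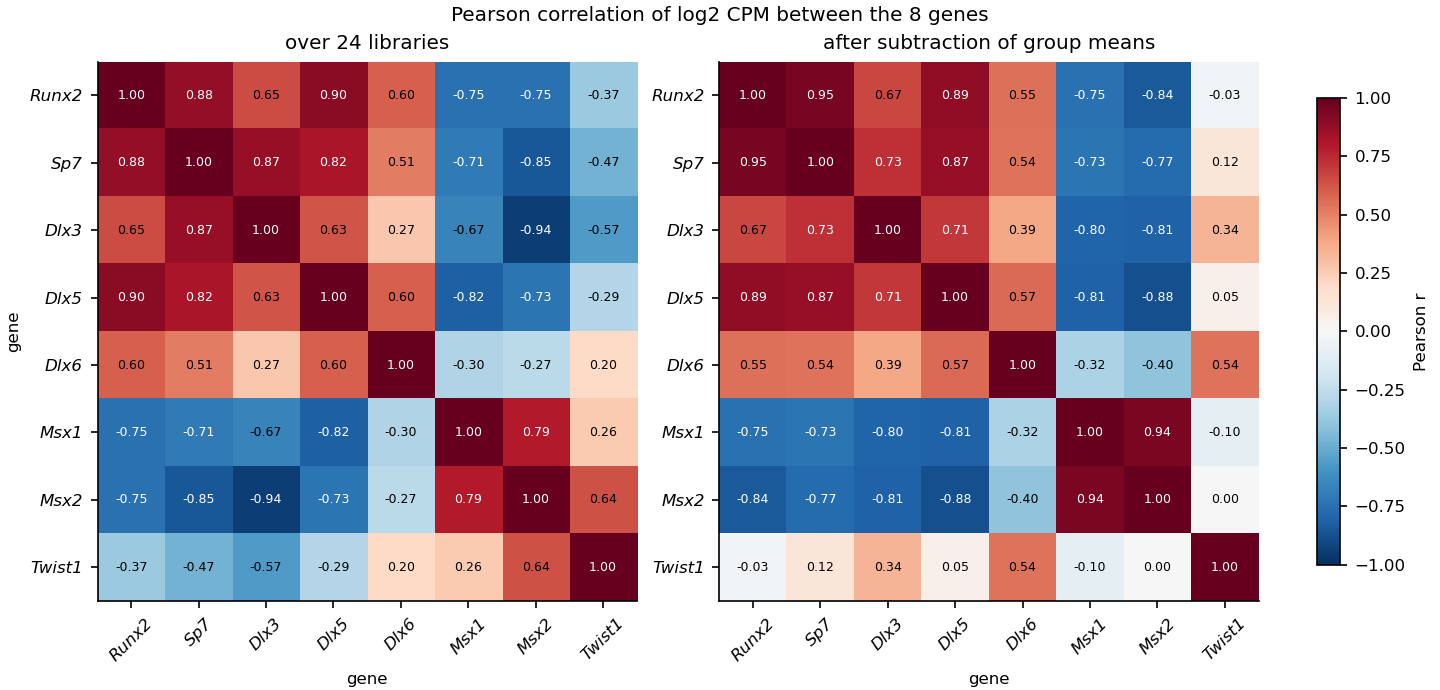
Pearson correlation of log2 CPM between each pair of genes over 24 libraries (left) and after subtraction of the mean of each of the 8 groups (right); red is positive and blue negative. Runx2, Sp7, Dlx3 and Dlx5 form a red block and Msx1 and Msx2 a second one, at 0.79 and 0.94, opposed to the first, while Twist1 is near 0 with most genes on the right.

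The genes most like each member were taken from 13250 genes with a mean of at least 1 CPM, by the same correlation over 24 libraries. Dlx3 had the closest match, with Ifitm5, an osteoblast membrane protein, at 0.996, Slc36a2, an amino acid transporter, at 0.988 and Adgrd1, an adhesion receptor, at 0.987. Dlx3 and Ifitm5 each reached the filter minimum in 2 of 6 day 0 libraries and in 18 of 18 later ones. Their shared rise from the floor enters the value of 0.996. Msx2 followed with Masp1, a protease of the lectin complement pathway, at 0.974, and Rbms2 and Gm45338 at 0.97 each. Twist1 had Prrx2, a mesenchymal homeobox gene, at 0.966, Loxl1, an elastic fibre cross-linking enzyme, at 0.928 and Kctd17 at 0.927. Sp7 had the citrate transporter Slc13a5 at 0.959, Mycn at 0.955 and the bone matrix gene Sparc at 0.954. Msx1 had Mapk13, a p38 kinase, at 0.944, Gpr45 at 0.925 and Slc1a6 at 0.922. Runx2 had Tmtc2 at 0.905, and Pard6g and its fellow member Dlx5 at 0.902 each. Dlx5 had Ppp2r5a at 0.924, Pard6g at 0.921 and Runx2 at 0.902. Dlx6 had the weakest matches, with Dnajc1 at 0.887, Gm1976 at 0.828 and Nptxr at 0.813.

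A list of 20 genes that Runx2 and Sp7 are known to drive in bone was followed over the same step. From day 0 to day 10, 9 of them rose and 1 fell in WT, where 12.1% of all genes rose and 14% fell, with a median log2 change of 4.14 against -0.02 over all genes. In HBM 14 rose and none fell, where 14.1% of all genes rose and 12.4% fell, with a median of 5.79. Of the 20, 4 (Bglap, Ifitm5, Mepe and Sost) passed the filter on low counts only through libraries of later days, so a difference from day 0 was built into their being tested. The mineral-binding matrix protein gene Ibsp went from 0.223 to 357 CPM in WT means (adjusted p = 0.000132). Bglap went from 0.133 to 57.5 CPM in WT (adjusted p = 0.00155) and from 0.0999 to 226 CPM in HBM (adjusted p = 0.000483), on 2 to 8 counts per library on day 0, though reads of Bglap and its near-identical copy Bglap2 may not be told apart. The sphingomyelinase gene Smpd3 had log2 changes of 5.96 ± 1.16 and 7.76 ± 1.26. The gene that fell in WT was Spp1 (osteopontin), at -2.07 ± 0.59 (adjusted p = 0.0153), named after its values were seen. Between genotypes, with a batch term per day, 8 of 20 were higher in HBM on day 10 (0.663% of all genes), with a median of 0.93. On day 15 Col1a1 (0.96 ± 0.14) and Col1a2 (0.86 ± 0.13) were higher, and on day 21 Col1a1 was (0.81 ± 0.14). They were named after their values were seen, and without a block none of the 20 passed on any day. Without batch 21 the fit with a batch term per day called 4 of all genes higher in HBM on day 10 and none on day 15. Some of the 8 calls on day 10, and both on day 15, were thus lost. In the summed counts none of the 20 passed with the batch as a block either, with a median of 0.88.

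Partners and regulators of Runx2 moved in both directions. Of 17 tested, 3 rose and 4 fell in WT (median -0.15) and 4 rose and 4 fell in HBM (median -0.07) from day 0 to day 10. Over all genes 12.1% rose and 14% fell in WT, and 14.1% and 12.4% in HBM. Hdac5, a histone deacetylase that binds Runx2, rose by 0.78 ± 0.11 on the log2 scale in WT and 0.95 ± 0.11 in HBM. Runx1, the paralog used in blood, was at -0.71 ± 0.13 and -0.66 ± 0.13, and the corepressor gene Tle1 at -0.62 ± 0.15 and -0.75 ± 0.15. The zinc finger gene Zbtb16 rose by 2.87 ± 0.70 and 4.06 ± 0.77 from a mean of 0.0893 CPM in WT and 0.049 CPM in HBM, and it passed the filter on low counts only through libraries of later days. All of these passed in both genotypes. Between genotypes Runx3 alone passed, on day 15 with a batch term per day (0.83 ± 0.13, adjusted p = 0.0269), and it was named after its values were seen. The call was lost without batch 21, where that fit called no gene higher on day 15.

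Of 21 genes of the BMP and Wnt pathways, which feed into Dlx, Msx and Runx2 expression, 2 rose and 2 fell in WT and 4 rose and 2 fell in HBM from day 0 to day 10. The shares of all genes that rose and fell were 12.1% and 14% in WT and 14.1% and 12.4% in HBM. Medians of the 21 were -0.02 and 0.06. The ligand gene Bmp2 rose by 1.67 ± 0.35 in WT and 1.73 ± 0.35 in HBM, and Bmp4 by 1.07 ± 0.27 and 1.03 ± 0.27. Bmp7 was at -2.77 ± 0.47 and -2.18 ± 0.46, and the inhibitory Smad7 at -1.20 ± 0.25 in both, all past the threshold. Bmp2 was higher in HBM with a batch term per day on days 10 (0.75 ± 0.12), 15 (0.84 ± 0.12) and 21 (0.68 ± 0.12) and in the summed counts (0.79 ± 0.08, adjusted p = 0.0496). The Wnt factor gene Tcf7 was higher on day 10 in that fit (1.33 ± 0.23, adjusted p = 0.0233). Neither passed between genotypes without a block. Without batch 21 the fit with a batch term per day called no gene higher on day 15, so the Bmp2 call of that day was lost.

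For other transcription factors of the face and skull, a list of 28 had 26 tested. From day 0 to day 10, none rose and 2 fell in WT and 1 rose and 3 fell in HBM, with medians of -0.19 and -0.22. In the same fit 12.1% of all genes rose and 14% fell in WT, and 14.1% rose and 12.4% fell in HBM. Six4 was at -0.67 ± 0.18 in WT and -0.99 ± 0.18 in HBM. The hedgehog effector gene Gli1 rose in HBM by 4.68 ± 1.27 (adjusted p = 0.0118), and Tcf12, which encodes a partner of Twist1, was at -0.56 ± 0.18 there (adjusted p = 0.0316). These HBM values do not show a difference from WT, since the direct test of the genotype difference in this step called no gene. With the culture as a block the counts were 3 up and 6 down in WT and 2 up and 7 down in HBM, or 9 of 26 in each, close to the 38.4% and 38.2% of all genes. Between genotypes with a batch term per day, Zic1 (-0.90 ± 0.13) and Foxc2 (-0.72 ± 0.15) were lower in HBM on day 10, and Tfap2b was higher on day 15 (2.06 ± 0.38). These genes were named after their values were seen. Without batch 21 that fit called 1 of all genes lower on day 10 and none higher on day 15. The Tfap2b call and at least 1 of the day 10 calls were thus lost.

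Antisense and neighbouring genes bear on how far counts belong to the members, since the strand setting of the counting is not known here. Runx2os1, on the opposite strand, shares 519 exon bases with Runx2 (5.87% of its 8837) and had group means of 0.930 to 1.08 CPM. Dlx6os2 shares 104 exon bases with Dlx6 (4.38% of its 2375) and had group means of 0.0592 to 0.109 CPM. Dlx6os1 (Evf2), a long RNA that runs across Dlx6 on the other strand, shares none. Its symbol belongs to 2 Ensembl entries, and the entry with the most counts was used for levels and tests. This entry was at 2.04 ± 1.05 CPM in WT on day 0 and 3.68 ± 0.119 CPM on day 21, and at 2.10 ± 0.489 and 4.29 ± 1.01 CPM in HBM. Its change from day 0 to day 10 did not pass in WT (0.53 ± 0.30, adjusted p = 0.20) or in HBM (0.39 ± 0.30, adjusted p = 0.359). Without strand, reads of these partners and of the members over the shared bases cannot be told apart. Of 13 antisense and neighbour genes tested, 1 rose and 3 fell in WT and 3 rose and 2 fell in HBM from day 0 to day 10. Among all genes tested, 12.1% rose and 14% fell in WT, and 14.1% rose and 12.4% fell in HBM. Clic5 and Cytl1 of this list passed the filter on low counts only through libraries of later days. Hdac9, next to Twist1, rose by 1.59 ± 0.36 in WT and 2.08 ± 0.37 in HBM. Itga3, near Dlx3, was at -1.75 ± 0.28 and -2.10 ± 0.29, and Kat7, near Dlx3 too, at -0.37 ± 0.07 and -0.40 ± 0.07, all past the threshold.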

How the data were processed

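Polyadenylated RNA of 24 libraries was measured in 8 groups of 3. The deposited table holds counts of reads per gene, made by the authors with cutadapt 3.4, STAR 2.7.8a and featureCounts of Subread 2.0.1 on mm10, per the submitters' processing notes. The sources used here name neither the annotation release nor the strand setting of the counting. Of 54232 rows, 54164 matched GENCODE M21, which supplied symbols and coordinates, and 68 rows (at most 0.00337% of any library) did not.

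Library sizes were normalized by TMM (factors 0.866 to 1.11) and tested in R 4.3.3 with edgeR 4.0.16, by its quasi-likelihood test on a model of the 8 groups without a block, with Benjamini-Hochberg adjustment over 16592 genes (18387 for counts summed over days) and a threshold of 0.05. The code was tested on simulated counts. CPM are counts over scaled library size, and logs add a prior count of 1. Same-numbered cultures of the 2 genotypes deviated together on each day (correlations across genes of 0.523 to 0.796 in 12 pairs, against at most 0.122 for other numbers), so the batch number of the labels was taken to pair them, and blocked values are given where they change a call. Alternatives were other scaling, no filter, DESeq2 1.42.0, blocks by batch or culture, fits of 6 libraries and leaving out each library. Leaving out batch 21, and blocked fits with a batch or culture left out, were added after seeing the data, as was the test of the genotype difference in the day 0 to day 10 step. Days under 1 batch number were read as 1 culture and entered as separate libraries. Counting error understates the error between cultures. SD values give the spread between the libraries of a group. SE values come from the spread left in a fit, pooled over its groups. Save in the summed counts, these include repeated days of the same cultures. In blocked fits the differences between batches or cultures are removed from that spread, so these SE values do not measure them.

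The members, the gene lists and the tests were chosen with earlier results of these data known. The text names all members, up to 4 genes per list with the smallest p from day 0 to day 10 or over the summed days, and the 3 genes most correlated with each member. Sequences were read from mm10 with the coding exons of GENCODE M21. Of the items this covers, 1 listed gene and 1 sequence are not reported here.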

Additional observations from a re-analysis of the deposited data

How the results depend on the processing

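Under other scaling and without the filter on low counts, no call of a member was gained or lost. DESeq2 called the same number of members in the day 0 to day 10 step, 2 in WT and 3 in HBM, and between genotypes it called 1, 2, 0 and 1 genes on days 0, 10, 15 and 21, 25 in the summed counts, and 18 (WT) and 3 (HBM) genes from day 10 to day 21, where the main test called 0. With a batch term per day the genes called between genotypes were 20, 214, 51 and 41 on the 4 days, with 2 members on day 10 and 1 on day 15. With the culture as replicate block, 90 (WT) and 16 (HBM) genes were called from day 10 to day 21, and with a batch term 36 in the summed counts. The replicate block changed no call of a member other than those of Sp7, Dlx3 and Twist1 given beside the results.

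When the 6 libraries of the day 0 to day 10 step were fitted alone, 443 genes were called in WT, with 1 member, and 2045 in HBM. With batch 21 left out, 4 members were called in WT. Leaving out 1 library, culture or batch at a time, blocked fits included, gave 0 to 55, 0 to 42, 0 to 18 and 0 to 131 genes between genotypes on days 0, 10, 15 and 21, with 0 to 1 members on days 10, 15 and 21. The same gave 2864 to 6587 genes and 1 to 4 members in WT and 2805 to 5236 genes and 1 to 3 members in HBM from day 0 to day 10, and 0 to 15 (WT) and 0 to 1 (HBM) genes from day 10 to day 21.

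Of 1383 values of single members under an alternative, 73 changed sign, 66 of them with a library, culture or batch left out, and 0 of the 73 passed the test. In those fits the log2 difference of HBM and WT on day 0 ran from -0.46 to 0.35 for Sp7, -1.35 to 0.39 for Dlx3, -0.04 to 0.44 for Dlx5 and -0.45 to 0.17 for Msx1. On day 10 it ran from -0.80 to 0.21 for Msx1, -0.92 to 0.12 for Msx2 and -0.05 to 0.31 for Twist1. On day 15 it ran from -0.16 to 0.75 for Dlx5, -0.90 to 0.42 for Msx1, -0.79 to 0.15 for Msx2 and -0.22 to 0.13 for Twist1. On day 21 it ran from -0.03 to 0.52 for Dlx5, -0.56 to 0.48 for Msx1 and -0.52 to 0.31 for Msx2, and in the summed counts from -0.65 to 0.31 for Msx1 and -0.16 to 0.08 for Twist1. From day 0 to day 10 it ran in WT from -0.06 to 1.43 for Sp7, -0.15 to 0.38 for Dlx5 and -0.34 to 0.16 for Dlx6, and in HBM from -0.20 to 0.74 for Dlx5 and -0.19 to 0.34 for Dlx6. From day 10 to day 21 it ran in WT from -0.11 to 0.32 for Runx2, -0.13 to 0.42 for Dlx6 and -0.90 to 0.21 for Msx1. In HBM it ran from -0.01 to 0.30 for Runx2, -0.05 to 0.90 for Sp7, -0.03 to 1.82 for Dlx3, -0.04 to 0.40 for Dlx6, -0.57 to 0.39 for Msx1 and -0.87 to 0.13 for Msx2. The difference between the genotypes in that first step, with a batch left out under the block, ran from -0.32 to 0.11 for Msx1, -0.14 to 0.05 for Runx2, -0.02 to 0.39 for Dlx5 and -0.21 to 0.37 for Msx2. The other 7 sign changes were Dlx3 between genotypes on day 0 (-0.04 with 1 batch term, -0.01 with a batch term per day, both with a replicate block), Msx1 on day 21 (0.02, 0.08 and 0.02 with those blocks and without batch 21), Dlx6 in WT from day 0 to day 10 without batch 21 (0.23) and Twist1 over days 10, 15 and 21 summed (0.04). The cause was not tested.

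Each group holds 3 cultures. Dlx3 on day 0 rests on 2 to 18 counts per library. Days under 1 batch number were read as repeated samples of 1 culture, which the labels do not state. The HBM cultures differ from WT in the sex make-up of batches 18 and 19 as well as in genotype, which cannot be told apart there.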
